A study of Mus musculus with 9 samples.

Results

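The mouse major histocompatibility complex (MHC, called H2 in the mouse) was examined for binding of CTCF in CD8+ T cells. Members were taken by position: every peak of the 8 deposited CTCF peak lists that overlapped chr17:34000000-37300000 (mm9), with peaks of different libraries merged into one region where they overlapped by at least 1 bp. This gave 234 regions, out of 39574 over chromosomes 1 to 19 and X. The cells were naive splenic CD8+ T cells, taken by sorting for GFP+ TCRbeta+ CD62Lhi CD44lo-med, and were profiled by CUT&RUN, in which an antibody-tethered nuclease cuts out the DNA around the bound protein. Mice of all groups carried hCD2-Cre, a Cre recombinase driven by human CD2 sequences that is active in lymphocytes, and the Rosa26-lsl-GFP reporter, so that GFP marks cells in which Cre had acted. Wild-type mice (WT) had intact Tcf1 and Lef1 genes. In the Tcf1-/-Lef1-/- mice (DKO) both genes had been floxed, so the loss depends on Cre in the sorted cells. Cells were used directly (0 h, called naive below) or after 72 h of culture in IL-7 plus IL-15, cytokines of T cell homeostasis (called cultured), and each of the 4 groups had 2 CTCF libraries. A single IgG library of WT cells at 0 h was also made, and the sources used here do not say whether peaks were called against it. Ages were not used here, and nothing in the labels ties the paired libraries to different animals, so their spread may be technical. Peak lists do not measure RNA or protein, so neither the loss of Tcf1 and Lef1 nor the cell type could be checked from them within this interval.

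CTCF binds DNA through a row of zinc fingers and stops the cohesin ring that extrudes chromatin loops, so its sites often lie at loop anchors and domain boundaries. The MHC is among the most gene-dense parts of the genome. Its class I genes, such as H2-K1 and H2-D1, encode the molecules that show peptides to CD8+ T cells, while its class II genes encode the molecules that present peptides to CD4+ T cells and are expressed mainly by antigen-presenting cells. Class III holds unrelated genes, including complement components (C2, Cfb, C4b) and cytokines (Tnf, Lta, Ltb). CTCF sites between class II genes have been studied as loop anchors in B cells. All 36 genes of the lists considered were found in RefSeq (GRCm38), which served only for their order. From the first gene onwards the order was Tapbp (a peptide-loading chaperone), the class Ia gene H2-K1, the class II genes H2-Oa and H2-DMa, then the processing genes Psmb9, Tap1, Psmb8 and Tap2, and the class II genes H2-Ob, H2-Ab1, H2-Aa and H2-Eb1. Next came class III from Notch4 to Lta, the second class Ia gene H2-D1, and the class Ib genes of the Q and T series, from H2-Q1 to H2-T3. Since the peaks are in mm9 and the annotation is in another build, no peak was assigned to a gene, exon or intron, and regions are given by mm9 position.

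The lists differed in length, and this bears on every comparison below. On chromosomes 1 to 19 and X they held 30309 to 32585 peaks at 0 h, 17335 and 26630 in cultured WT cells, and 10339 and 16234 in cultured DKO cells. Every CTCF list ends at a fold enrichment of about 4, so an absent region is one with no peak listed there, which can still be bound below that limit. Read totals were not used here. Peak lists of a bulk assay also cannot tell fewer cells with CTCF at a site apart from less CTCF per cell. The IgG list held 5 peaks, 0 of them in the interval.

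CTCF regions were packed densely in the MHC. There were 70.9 regions per Mb in the interval, against 20.05 over chromosome 17 and 15.4 over all chromosomes. Regions with a peak in all 8 libraries were also denser, at 18.5 per Mb against 4.56 on chromosome 17 and 3.74 genome-wide. When the genome was laid out in 768 end-to-end windows of the same 3.3 Mb, the median window held 39.5 regions, and 1 window held at least as many as the MHC. These densities are a description of position and carry no test.

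**Figure D1:**
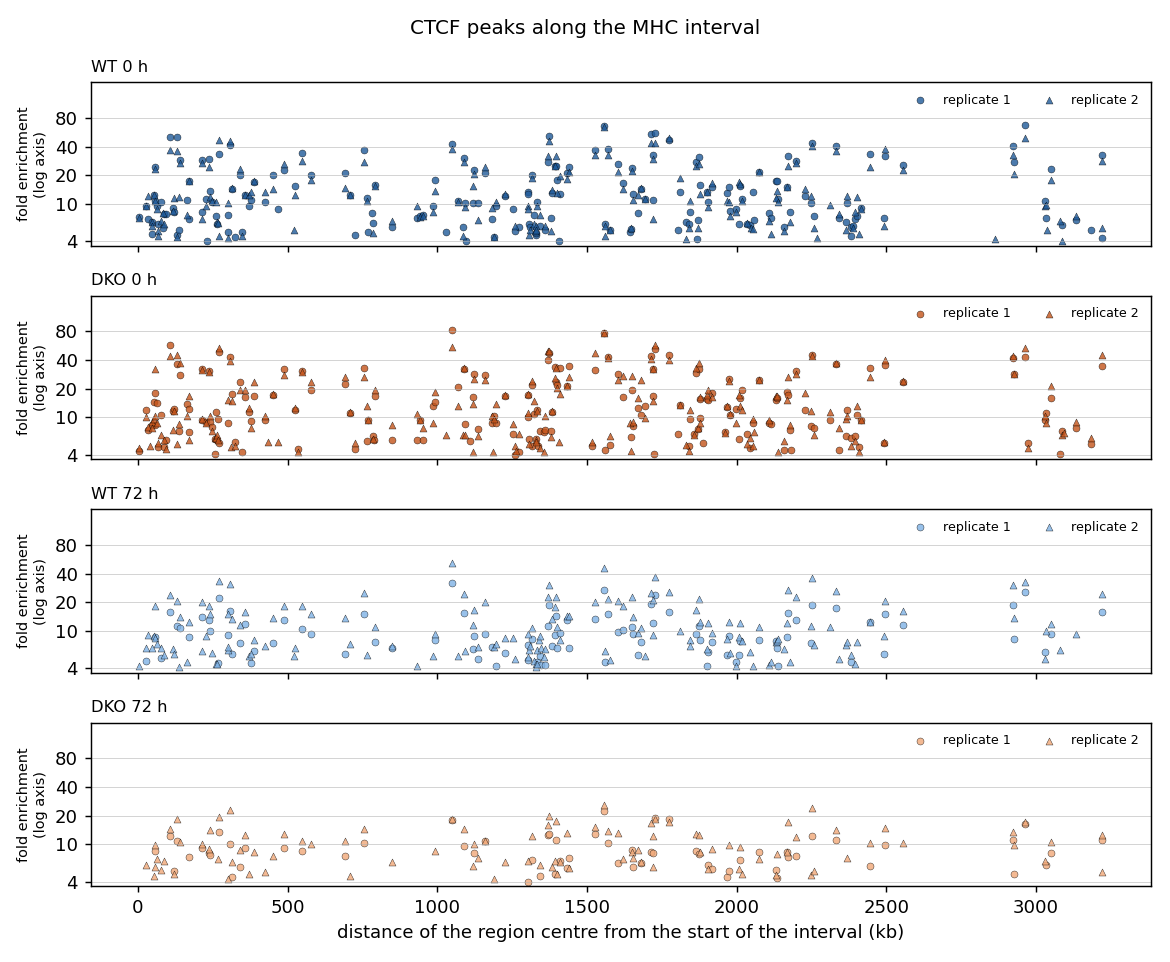
Fold enrichment of each CTCF peak region (log axis, the authors' value per peak) against its distance from the start of the MHC interval in kb, in 4 panels for WT and DKO cells at 0 h and 72 h, with circles for replicate 1 and triangles for replicate 2. Points fill most of the interval at 0 h and thin out at 72 h, most in DKO cells, while the tallest points stay in place, and a stretch before 3000 kb is nearly empty in every panel.

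Of the 234 regions, 61 (26.1%) had a peak in all 8 libraries, against 24.2% of all regions. Another 33 (14.1%) had a peak in a single library, against 14.7% genome-wide, with a fold of 4.003 to 7.99. The regions found in all 8 libraries were wider, with a median width of 1246 bp against 654 bp for the rest. Their summits lay close together, with a median distance of 125 bp between the outermost summits, and 49 of the 61 stayed within 200 bp. The 4 lists of naive cells shared 155 regions (66.2%, against 61.8% genome-wide).

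The region of highest rank in the MHC was chr17:34306055-34308769. Rank is given as a percentile within each list by the authors' −log10 p, where 100 is the strongest peak, and its mean over the 8 lists here was 99.6. Its fold was 41.6 and 45.8 in WT and 43.2 and 38.8 in naive DKO cells. In cultured cells the fold reached 16.2 and 31.4 (WT) and 9.97 and 22.6 (DKO). The values at 72 h were all below those at 0 h, and replicate 2 was above replicate 1 in both genotypes at 72 h. Fold values of different lists are set side by side here only as a description, since the median of the whole list also ran from 7.03 in a DKO 72 h list to 10.4 in a DKO 0 h list.

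The region chr17:35557121-35558071 was the steadiest leader, since it alone was among the 5 highest folds of the interval in all 8 lists. Its fold was 65.6 and 64.6 in WT and 78.0 and 77.6 in naive DKO cells, and the replicates lay close together in both genotypes. After culture the WT values were 27.1 and 46.3 and the DKO values 22.4 and 26.0. It held the highest fold of the interval in 4 lists: WT 0 h replicate 2, DKO 0 h replicate 2 and both DKO 72 h libraries.

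The highest fold in the other lists came from a pair of sites. The region chr17:35048566-35049675 had a fold of 42.4 and 37.5 in WT and 83.5 and 54.6 in naive DKO cells. In cultured cells it had 32.1 and 51.1 (WT) and 17.9 and 18.2 (DKO). The DKO folds were thus above the WT folds at 0 h and below them at 72 h, without overlap at either time. By rank percentile the genotypes overlapped at 0 h (WT 99.63 and 99.65, DKO 99.83 and 99.64). At 72 h DKO ranked lower (98.4 and 98.8, against 99.7 and 99.8 in WT). With 2 libraries against 2 an exact permutation test cannot go below p = 0.333. This region led DKO 0 h replicate 1 and both WT 72 h libraries. In WT 0 h replicate 1 the lead was held by chr17:36960726-36963852, with 67.3 there and 48.8 in the other WT library, 42.9 and 53.0 in naive DKO cells, 25.5 and 32.5 in cultured WT cells, and 16.2 and 17.1 in cultured DKO cells. That region was 3127 bp wide and its outermost summits were 1785 bp apart, the widest spread among the 61, so its libraries did not all peak at the same position.

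The fifth of the highest-ranked regions was chr17:34104968-34106506. Its fold was 50.5 and 36.9 in WT and 57.9 and 44.2 in naive DKO cells, and 15.8, 23.8, 12.1 and 14.5 at 72 h in the order WT and DKO. Over the 61 regions the order of folds was alike between lists: Spearman's rho, across regions and not samples, ran from 0.857 to 0.937 between 0 h libraries, from 0.790 to 0.899 between 72 h libraries and from 0.683 to 0.876 across the times. Of the MHC peaks, 16.9% to 26.5% stood in the top 10% of their own list, where 10% of all peaks lie by construction.

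CTCF regions were unevenly spread along the MHC. In steps of 300 kb from the start of the interval, the counts were 41, 22, 11, 22, 34, 22, 32, 25, 7, 5 and 13 regions. The densest 100 kb ran from chr17:35301682 to 35400013 and held 25 regions, 7 of them found in all 8 libraries. Both libraries had a peak at 18 of these in naive WT cells, 17 in naive DKO cells, 13 in cultured WT cells and 7 in cultured DKO cells. The widest gap lay between chr17:36556019 and 36862949, where 307 kb held no peak in any library. The single region on its far side, chr17:36862949-36863410, was listed only in WT 0 h replicate 2, with a fold of 4.23. Counting regions seen in at least 2 libraries, the gap extended to 367 kb. The next widest gap, 115 kb, ended at chr17:34692220-34693359, a region found in all 8 libraries with folds of 21.0 and 14.6 in WT and 22.6 and 26.8 in naive DKO cells. Elsewhere the spacing was short, with a median gap of 5.72 kb between neighbours. Peak lists do not say whether a stretch is free of CTCF or could not be mapped uniquely.

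**Figure D2:**
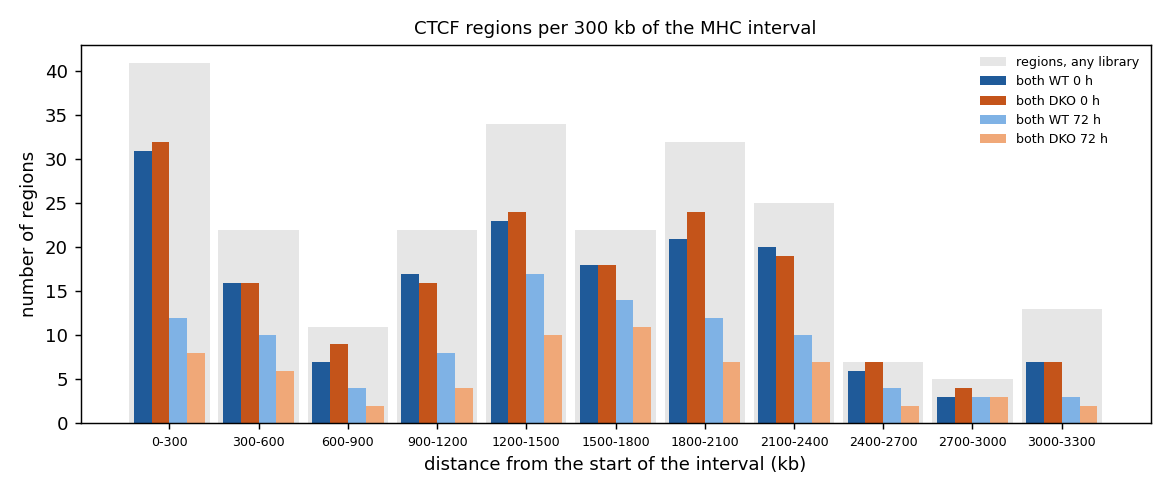
Number of CTCF regions per 300 kb of the MHC interval: grey bars count regions with a peak in any library, and coloured bars count regions with a peak in both libraries of WT or DKO cells at 0 h or 72 h. The step from 0 to 300 kb holds the most regions (41) and the step from 2700 to 3000 kb the fewest (5), and the 0 h bars exceed the 72 h bars in every step but that of 2700 to 3000 kb, where WT has 3 at both times.

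Each step of the interval had a leading region, and 10 of the 11 leaders were found in all 8 libraries. Besides those already given, they included chr17:35372172-35373915 (fold 52.1 and 45.4 in naive WT cells, 47.5 and 50.1 in naive DKO cells) and chr17:36250952-36252225 (43.9 and 40.8 in WT, 45.3 and 43.7 in DKO). The exception was chr17:35977812-35978821, in the step from 1800 to 2100 kb. It ranked at 84.3 to 93.4 in the 0 h lists although its fold was only 8.38 and 7.39 in WT and 10.5 and 10.7 in DKO. After culture it was listed in WT replicate 2 alone, with a fold of 5.81.

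The number of peaks in the MHC was compared between times and genotypes. The lists of naive cells held 196 and 189 peaks there in WT and 193 and 201 in DKO. Those of cultured cells held 106 and 169 in WT and 68 and 107 in DKO. Every 72 h library was below every 0 h library, and the group means were 193 ± 4.95 (SD, n = 2) and 197 ± 5.66 (n = 2) at 0 h and 138 ± 44.5 (n = 2) and 87.5 ± 27.6 (n = 2) at 72 h, in the order WT and DKO. The mean difference of 72 h minus 0 h was -82.2 peaks (p = 0.0556 in an exact two-sided permutation of the times within each genotype, 4 libraries against 4, where no smaller p is possible). The DKO minus WT difference was -22.8 peaks (p = 0.556 in an exact two-sided permutation of the genotypes within each time), and without DKO 72 h replicate 1 it was 2. At 0 h the DKO mean was 4.5 peaks above WT and at 72 h it was 50 below.

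As a share of its list, the MHC changed little. It held 0.602% and 0.610% of the peaks in WT and 0.637% and 0.640% in naive DKO cells, and 0.611% and 0.635% in WT and 0.658% and 0.659% in cultured DKO cells. All 4 DKO libraries were above all 4 WT libraries, by 0.0340 percentage points on average (exact permutation p = 0.0556, again the lowest that can be reached). The counting error of a single share is wider than this difference: the exact Clopper-Pearson 95% interval was 0.520% to 0.692% for WT 0 h replicate 1 and 0.511% to 0.833% for DKO 72 h replicate 1, and it covers counting error only. The share at 72 h was higher than at 0 h by 0.0185 percentage points (exact permutation test, n = 4 against 4, p = 0.0556), within the same limits. This direction turned when each list was shortened to its 10339 strongest peaks. The MHC then held 71 and 76 peaks in WT and 73 and 79 in naive DKO cells, and 66 and 74 in WT and 68 and 70 in cultured DKO cells. At equal length the 72 h libraries differed from the 0 h libraries by -5.25 peaks in the MHC on average (exact permutation test, n = 4 against 4, p = 0.167), and DKO had 0.75 more than WT (p = 0.833).

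**Figure D3:**
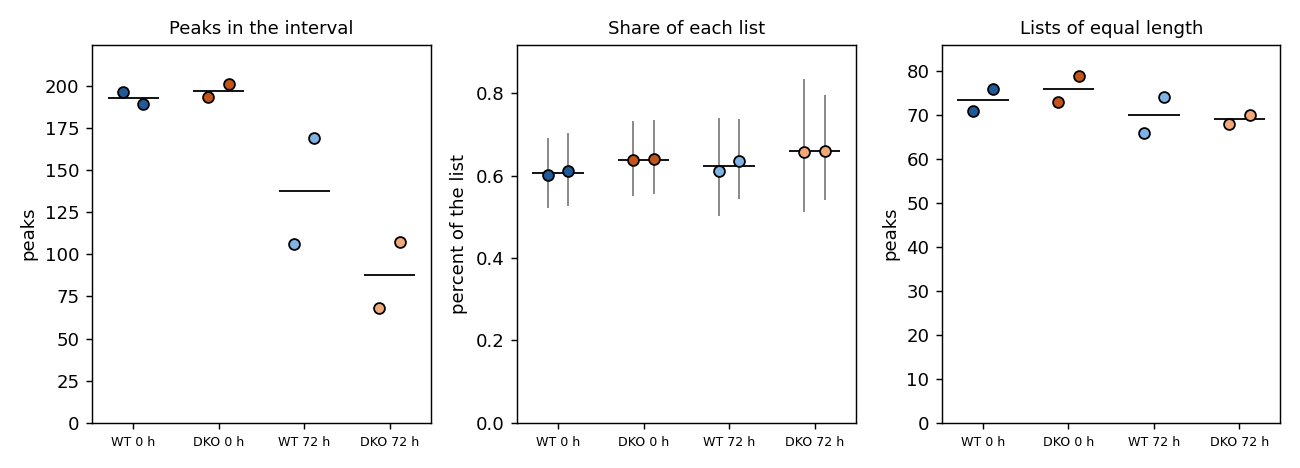
Values of each library (points) and group means (lines) for WT and DKO cells at 0 h and 72 h: the number of peaks in the MHC interval, its percentage of the library's list with 95% exact binomial intervals as grey bars, and the number of peaks in the interval after shortening every list to its 10339 strongest peaks. Peak numbers fall from 189 to 201 at 0 h to 68 to 169 at 72 h, while the share stays between 0.602% and 0.659% and the equal-length number between 66 and 79.

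Naive WT and DKO cells were compared region by region to ask where CTCF differs without Tcf1 and Lef1. A region counted as specific when it was in both lists of a group and in no list of the other group. At 0 h, 5 MHC regions were found in WT and not in DKO (2.14%, against 4.88% of all regions), and 9 in DKO and not in WT (3.85%, against 2.73%). The DKO-only regions thus outnumbered the WT-only regions here, the reverse of the order over the whole genome. Leaving out a library loosens this rule, since a single list then stands for its group. Apart from changes in merging, such counts can only stay or rise, so a rise does not measure their stability. The genome shares under the looser rule were not computed. Leaving out WT replicates 1 and 2 and DKO replicates 1 and 2 in turn gave 14, 11, 8 and 11 WT-only regions. In the same order there were 18, 12, 17 and 18 DKO-only regions. With −log10 q of at least 5 there were 6 WT-only and 7 DKO-only regions. With lists of equal length the MHC held 97 regions. Of these, 0 were WT-only (3.03% genome-wide) and 3 were DKO-only (3.09%, against 2.67% genome-wide).

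These specific regions stood at low or middle ranks, with mean rank percentiles up to 24.4 (WT-only) and 41.9 (DKO-only). In a single list the percentile reached 52.7, at chr17:34256309-34256862 in DKO replicate 2. The WT-only regions had folds of 4.33 to 7.89. They were chr17:34084700-34084996 (5.55 and 7.89), chr17:34301063-34301693 (5.03 and 4.33), chr17:36389198-36389865 (5.82 and 5.60), chr17:35309968-35310709 (5.71 and 5.21) and chr17:37221766-37222127 (4.36 and 5.54). Those at 34301063 and 35309968 also had a peak in WT replicate 2 at 72 h, and that at 37221766 had one in DKO replicate 2 at 72 h. Among the DKO-only regions the highest fold was at chr17:35878573-35879171, with 9.82 and 8.63. The others of highest rank were chr17:34256309-34256862 (4.04 and 6.07), chr17:35959882-35960380 (6.96 and 6.86), chr17:36973672-36974366 (5.35 and 4.71) and chr17:35856717-35857214 (6.65 and 6.55). None of these 5 had a peak in any 72 h library. Of the 9 DKO-only regions, 3 lay in the step from 1800 to 2100 kb.

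After culture with the cytokines the WT-only regions outnumbered the DKO-only regions, as they did over the whole genome. Both cultured DKO lists were shorter than both cultured WT lists. Both WT lists and no DKO list held 14 MHC regions (5.98%, against 6.37% genome-wide), and 0 regions were found in DKO and not in WT (0.0303% genome-wide). Of the 14, 9 had a peak in all 4 libraries at 0 h, 3 in 3 of them and 2 in none. The matching shares over the genome were not computed. Leaving out WT replicate 1 gave 62 WT-only regions, and leaving out DKO replicate 2 gave 34, again under the looser rule. At equal length, 3 of 97 regions were WT-only (3.09%, against 3.03% genome-wide) and 1 was DKO-only (1.03%, against 2.78%). Most of the difference was thus not seen in lists of the same length. No MHC region had a peak in all 4 WT libraries and no DKO library, or the reverse, against 0.498% and 0.0126% of all regions.

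The leading WT-only region at 72 h was chr17:34299640-34300285. Its fold in cultured WT cells was 9.05 and 14.96, at rank percentiles of 63.4 and 80.8 and none of the other 6 lists had a peak there. It lay 5.77 kb before chr17:34306055-34308769, the region of highest rank in the MHC. Nearer regions were listed in naive cells. The nearest, 777 bp on, was chr17:34301063-34301693, one of the WT-only regions at 0 h. After that came chr17:34301983-34302846, with a peak in both lists of naive WT cells and both of naive DKO cells. The other of the 14 with no peak in naive cells was chr17:35347003-35347499 (4.33 and 6.50). At the remaining named regions the naive cells of both genotypes had peaks. At chr17:34790640-34791443 the fold was 15.9 and 15.3 in WT and 16.5 and 19.5 in naive DKO cells, and 7.64 and 10.9 in cultured WT cells. At chr17:35332324-35333683 it was 10.3 and 9.37 in WT, 11.9 and 11.6 in DKO, and 4.63 and 6.23 in cultured WT cells. At chr17:35900407-35901693 it was 13.3 and 13.1 in WT, 15.4 and 17.2 in DKO, and 4.23 and 6.36 in cultured WT cells. These 3 had lower folds in cultured than in naive WT cells, and in cultured replicate 1 the last 2 were close to the lower limit of the lists.

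In WT cells the times were compared to ask which MHC sites were no longer listed after culture. There were 20 regions in both lists of naive and in no list of cultured WT cells (8.55%, against 13.0% genome-wide), and 2 with the reverse pattern (0.855%, against 0.576%). The 2 were the regions at 34299640 and 35347003 described above. Under the looser rule, leaving out naive WT replicate 2 gave 38 regions at 0 h alone and leaving out cultured WT replicate 2 gave 74. The reverse pattern rose to 6 when cultured WT replicate 1 was left out. At equal length, 6 of 97 regions were found at 0 h alone (6.19%, against 5.15% genome-wide) and 5 at 72 h alone (5.15%, against 4.91%). Of the 20, 12 were in both lists of naive DKO cells and 1 was in a list of cultured DKO cells, and the matching genome shares were not computed. The comparison of times in WT shares its libraries with those of genotype.

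The highest-ranked of the 20 was chr17:36227480-36228147. Its fold was 12.03 and 14.1 in WT and 11.9 and 18.2 in naive DKO cells, with rank percentiles of 61.2 to 79.2, and it was in no list at 72 h. The next was chr17:35378290-35380151, 1862 bp wide, with 6.98 and 5.09 in WT and 7.18 and 6.15 in DKO. It was followed by chr17:34783827-34784492 (6.28 and 4.92 in WT, 6.40 and 5.82 in DKO), chr17:36413641-36414719 (9.09 and 8.80, 9.23 and 9.24) and chr17:34066321-34067247 (6.05 and 5.19, 4.82 and 5.29). All 5 were in the 4 lists of naive cells and in no list at 72 h. Regions with that pattern numbered 12 in the MHC (5.13%, against 7.51% genome-wide).

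DKO cells had the most regions listed at 0 h alone, in the MHC as over the genome, and their cultured lists were the shortest. There were 77 in both lists of naive and in no list of cultured DKO cells (32.9%, against 29.1% genome-wide), and 0 with the reverse (0.116% genome-wide). Both WT libraries at 0 h had a peak at 57 of the 77, and 50 of the 77 had a peak in at least 1 WT library at 72 h. The shares over the genome that match the 57 and the 50 were not computed. At equal length the counts among 97 regions were 10 (10.3%, against 6.50% genome-wide) and 3 (3.09%, against 4.95%). The highest-ranked were chr17:35977812-35978821, described above, and chr17:36053056-36053874, with 8.76 and 9.61 in DKO and 13.2 and 5.45 in naive WT cells. They were followed by chr17:35900407-35901693, by chr17:35067397-35068434, with 20.6 and 13.0 in DKO and 10.6 and 10.4 in WT, and by chr17:35332324-35333683. Of these 5, all had a peak in WT replicate 2 at 72 h.

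Peaks at 72 h were nearly all at sites already listed in naive cells. All 65 regions of DKO 72 h replicate 1 and 95 of the 97 of replicate 2 had a peak in all 4 libraries at 0 h, as did 93 of 99 and 142 of 160 in WT replicates 1 and 2. Only 5 MHC regions had a peak at 72 h and none at 0 h (1189 of 39574 over the genome), all of them in WT replicate 2 and 2 of them also in WT replicate 1. The DKO 72 h lists held no such region. Replicates were nested in the same way: 62 of the 65 regions of the shorter DKO list were in the longer one, and 97 of 99 in WT. These are 95.4% and 98.0%, against 97.8% and 98.7% over the genome.

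Which sites were still listed at 72 h went with their rank in naive cells. Among the 155 regions found in all 4 lists at 0 h, 12 had no peak at 72 h, and 36, 23, 23 and 61 had a peak in 1, 2, 3 and 4 of the 72 h libraries. The median of the mean rank percentile at 0 h was 30.4, 42.2, 45.1, 68.0 and 89.4 in that order, against 28.7, 36.2, 44.9, 59.4 and 82.0 over all regions. The ranges overlapped: regions with no peak at 72 h reached a percentile of 69.5, and regions found in all 72 h libraries went down to 40.005. In the band of ranks from 75 to 100 in naive cells, 57 of 61 MHC regions were in both lists of cultured WT cells and 52 in both lists of cultured DKO cells. These are 93.4% and 85.2%, against 96.4% and 85.0% over the whole genome. In the band from 50 to 75 these were 22 and 7 of 34. Over the whole genome the shares for that band were 76.1% in WT and 38.7% in DKO, against 64.7% and 20.6% in the MHC. In the band from 25 to 50 they were 10 and 3 of 47, or 21.3% and 6.38%, against 36.8% and 6.30%. In the lowest band, from 0 to 25, they were 3 and 0 of 13, or 23.1% in WT against 13.0% genome-wide and 0% in DKO against 1.51%. The WT share in the MHC was thus below that of the genome in the upper 3 bands and above it in the lowest. These shares rest on 13 to 61 regions each and on lists of unequal length, and their difference from the genome was not tested.

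**Figure D4:**
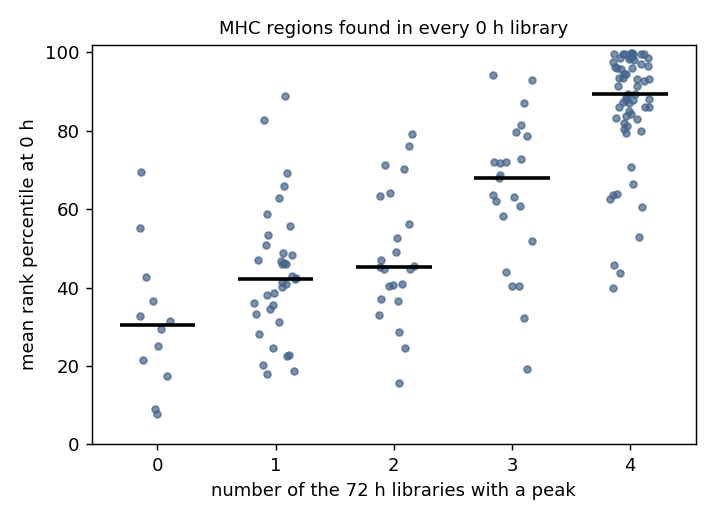
Mean rank percentile in the 4 lists at 0 h (0 weakest, 100 strongest) of the 155 MHC regions found in all of them, against the number of 72 h libraries that list a peak there; each point is a region, shifted sideways at random for visibility, and bars are medians. The median is 30.4 for regions in no 72 h library and 89.4 for regions in all 4, with overlapping ranges.

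Retention also differed along the interval. Of the regions found in all 4 lists at 0 h, both WT libraries at 72 h kept 11 of 28 in the step from 0 to 300 kb, 16 of 21 from 1200 to 1500 kb and 13 of 17 from 1500 to 1800 kb. Both DKO libraries kept 8, 10 and 11 of these. Over all 11 steps the share kept ran from 39.3% to 100% in WT and from 25% to 100% in DKO. Both upper values came from the step of 2700 to 3000 kb, with 3 of 3 regions. The spread between such steps elsewhere in the genome was not computed. The step from 1500 to 1800 kb, which holds chr17:35557121-35558071, also had the most regions found in all 8 libraries, 11 of 22. The step from 0 to 300 kb, the densest, had 7 of 41. Median folds at 0 h over the 4 libraries were 8.70 to 9.52 from 0 to 300 kb and 14.5 to 24.7 from 1500 to 1800 kb. From 1200 to 1500 kb they were 9.41 to 11.5, although both WT libraries kept 76.2% there, against 76.5% from 1500 to 1800 kb. In DKO these shares were 47.6% and 64.7%. Median fold and retention thus did not go together over all 3 steps. Whether rank alone accounts for these differences between steps was not tested.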

How the data were processed

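Peak lists of 8 CTCF libraries and 1 IgG library were used, one narrowPeak list per sample. The build was mm9, and the tools named were Bowtie2 2.2.5, MACS2 2.1.1 and FastQC, all per the submitters' processing notes. The caller's control and thresholds are not given in the sources used here. Deposited fold enrichment (a ratio to the local background), −log10 p and −log10 q are the authors' values per peak, which served for description and for ranks or filters inside 1 list. The deposited summit offset in bp gave summit positions.

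Peaks on chromosomes 1 to 19 and X were merged at 1 bp overlap with Python 3.11.15, pandas 2.3.3 and scipy 1.17.1. A region took the highest fold and rank of a library's peaks in it. Tests were exact permutations over libraries (36 assignments), and no p was given per region. On simulated lists the overlap step found 200 of 200 planted regions for genotype at 0 h among 39574. The planted peaks had the exact coordinates of merged regions, so this checks the code and not the recovery of shifted or weak peaks. Alternatives were −log10 q of at least 5, equal list length (10339), overlap of 50% of the shorter peak, a replicate block and each library left out.

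Regions were named by rule: the 5 highest-ranked in all 8 libraries, up to 5 per contrast and direction, the leader of each 300 kb step, the densest 100 kb and the 2 widest gaps. Other features singled out, such as the single lists a region led and the steps compared for retention, were chosen after their values were seen. The interval, members and lists were chosen with earlier results of these data known. A genome or annotation of mm9 was not used here, so the planned nearest genes and sequence motifs were not analysed here.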

Additional observations from a re-analysis of the deposited data

How the results depend on the processing

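Of 175 recomputed values, 144 were counted as unchanged, 28 moved and 3 turned. Unchanged meant a count within 1.5 times of the reported one, or the same sign and the same side of the test's threshold. No test could cross that threshold, because the smallest p it can reach lies above it. The time difference in share counted, though its exact permutation p rose from 0.0556 to 0.333 with −log10 q of at least 5. A replicate block leaves every difference as it is, and a left-out library bears little on counts between other groups. The 144 thus overstates how far the results held. With −log10 q of at least 5, regions in WT and not DKO at 72 h numbered 7 and regions in WT at 72 h and not 0 h numbered 1. At equal length the MHC held 97 regions. The 2 directions gave 0 and 3 of them for genotype at 0 h (WT-only first) and 3 and 1 at 72 h. For time they gave 6 and 5 in WT (0 h first) and 10 and 3 in DKO. The DKO minus WT difference in peaks was then 0.75 and the 72 h minus 0 h difference in share -0.0508 percentage points, both reversed. The cause was not tested beyond the shorter lists themselves. Merging at 50% overlap moved 0 counts by over 1.5 times.

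Leaving out single libraries gave 227 to 234 regions, 61 to 81 in all libraries, 5 to 14 and 9 to 18 for genotype at 0 h, 14 to 62 and 0 to 1 at 72 h, 20 to 74 and 2 to 6 for time in WT, 77 to 111 and 0 to 1 for time in DKO, 0 to 2 for all WT and no DKO, and 0 for the reverse. Since a left-out library loosens the rules of presence and absence, the counts by group could only stay or rise, apart from changes in merging. The differences in peaks ranged from -101.1 to -67.4 for time and from -42.4 to 2 for genotype, and those in share from 0.0116 to 0.0283 and from 0.0297 to 0.0407.

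Deviations of same-numbered libraries correlated only weakly, at 0.0147 to 0.0423 over 9591 regions. Such a correlation across regions does not measure a shift of whole lists shared by a replicate number, which was not tested. Replicate 2 had the longer list in both genotypes at 72 h (26630 against 17335 in WT, 16234 against 10339 in DKO). At 0 h this held in DKO (31392 against 30309) and not in WT (30967 against 32585). With a replicate block the 72 h minus 0 h difference of -82.2 peaks and both differences in share (0.0185 and 0.0340) had an exact permutation p of 0.125, the smallest that 16 assignments allow, and the genotype difference of -22.8 peaks had 0.375. Having 2 libraries per group limits every comparison.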

Other observations

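Close pairs of constant sites occurred at 5 places in the MHC, where 2 regions found in all 8 libraries were separated by 2 kb or less. The closest pair, 0.443 kb apart, ended with chr17:34239551-34240422, and the others ended with chr17:36133123-36136679 (0.698 kb), chr17:36925334-36926453 (0.725 kb), chr17:35372172-35373915 (1.07 kb) and chr17:36171997-36173797 (1.91 kb). Within 10 kb there were 12 such pairs among the 61 regions.

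Some MHC regions joined several peaks. In 13 of the 234, at least 1 library had more than 1 peak in the merged region. The widest was chr17:36133123-36136679, at 3557 bp, where a library had 3 peaks, followed by chr17:34340252-34343429, at 3178 bp, also with 3. The strongest summits of the libraries nonetheless lay within 175 and 90 bp of each other at these 2 regions. The regions covered 6.49% of the interval.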
